A study of Rattus norvegicus with 12 samples.

Results

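The genes of transforming growth factor-β (TGF-β) signalling described here are 10 of the 34599 genes in the count table. They were taken by symbol: the ligands Tgfb1, Tgfb2 and Tgfb3, the activin subunit gene Inhba, the stress ligand gene Gdf15, the receptors Tgfbr1 and Tgfbr2, and the intracellular mediators Smad2, Smad3 and Smad7. All 10 were found, and all 10 passed the filter on low counts. RNA-seq was done on the left ventricle of male SD rats, 4 in each of 3 groups, 1 day after surgery. The study's methods describe its SD rats as some weeks old where their purchase is given, and state no separate age for the infarct experiment.

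All rats were anaesthetised with chloral hydrate and underwent a left thoracotomy. Sham rats had no coronary ligation. In MI (myocardial infarction) rats the left anterior descending coronary artery was ligated and nothing further was done. iCarP+/Light+ rats had the same ligation, then an injection of the green alga Chlorella into the infarct, and then iCarP, a flexible patch of a degradable polyester (PMCL) with an embedded optical fibre. The patch was glued to the epicardium with the adhesive CCS@gel, and the heart was illuminated through it with the chest closed. Alga, patch, adhesive and light were given to the same rats, so their parts cannot be told apart. An unlit patch group of the study is not among the 12 samples of the count table. Tissue came from infarct regions where there was an infarct.

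TGF-β ligands are secreted in a latent form, bound to the matrix by latent TGF-β binding proteins, and are released by αv integrins and thrombospondin-1. Free ligand joins the type II receptor (Tgfbr2) to the type I receptor (Tgfbr1), which phosphorylates SMAD2 and SMAD3. These enter the nucleus with SMAD4, and SMAD7, itself induced by the pathway, blocks the type I receptor. In the infarcted heart the pathway is known for restraining inflammation and for driving fibroblasts to deposit matrix. RNA levels report neither the release of a ligand nor the phosphorylation of a SMAD.

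The libraries held 14064414 to 17136958 counts. The 6 cardiomyocyte markers fixed for this work (Myh6, Tnnt2, Tnni3, Actc1, Myl2, Ryr2) were detected in every group. Their summed level was 33527 to 38446 CPM in Sham rats, 2110 to 3824 in MI rats and 1464 to 4517 in iCarP+/Light+ rats. CPM are counts scaled to the library total, with that total adjusted by trimmed means (TMM). The 6 fibroblast markers summed to 861 to 1013, 287 to 338 and 165 to 301 CPM, and the 6 macrophage markers to 363 to 577, 3722 to 6578 and 2798 to 4591 CPM. The 6 neutrophil markers summed to 6.36 to 11.2 CPM in Sham rats, 324 to 627 in MI rats and 2184 to 6594 in iCarP+/Light+ rats. The 5 endothelial markers matched by symbol, of 6 listed, summed to 1446 to 1611, 605 to 952 and 833 to 924 CPM, and the 6 mural markers to 1031 to 1163, 345 to 599 and 396 to 509 CPM. No marker was at 0 in a whole group. Mitochondrial genes took 22.8 to 28.9% of the counts in Sham rats, 8.52 to 11.5% in MI rats and 7.14 to 14.2% in iCarP+/Light+ rats. In such bulk tissue, fewer cells of a type and less RNA per cell cannot be told apart, and the part of these shifts in the results below was not tested.

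The promoters of the 3 ligand genes whose RNA differed between MI and iCarP+/Light+ rats are shown first, because they are the ligands among the 5 members called in that comparison. The SMAD genes Smad3 and Smad7 also differed in that comparison and are described further on. Tgfb2 was lower, and Inhba and Gdf15 were higher, in iCarP+/Light+ rats. Each line holds the 250 bases before the RefSeq start in the rat build GRCr8, 5′ to 3′ on the gene's strand, with the motifs found in capitals. They lie at chr13:100792686-100792935 (minus strand) for Tgfb2, chr17:53804509-53804758 (minus strand) for Inhba, and chr16:18839015-18839264 (plus strand) for the downstream of the 2 Gdf15 starts.
Tgfb2: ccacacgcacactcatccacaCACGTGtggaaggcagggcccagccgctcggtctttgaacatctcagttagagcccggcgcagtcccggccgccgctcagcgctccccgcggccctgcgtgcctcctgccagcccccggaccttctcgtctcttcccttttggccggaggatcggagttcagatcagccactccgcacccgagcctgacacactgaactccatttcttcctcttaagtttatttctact
Inhba: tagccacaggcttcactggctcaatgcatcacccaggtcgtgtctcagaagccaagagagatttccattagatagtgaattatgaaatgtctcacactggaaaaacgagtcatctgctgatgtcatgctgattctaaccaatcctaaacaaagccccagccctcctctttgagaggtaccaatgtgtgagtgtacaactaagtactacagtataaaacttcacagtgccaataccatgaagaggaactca
Gdf15: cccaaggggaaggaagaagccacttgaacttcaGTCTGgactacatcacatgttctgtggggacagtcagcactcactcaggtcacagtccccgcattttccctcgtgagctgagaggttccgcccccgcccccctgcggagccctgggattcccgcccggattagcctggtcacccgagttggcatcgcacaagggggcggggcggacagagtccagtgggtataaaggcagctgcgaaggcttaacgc

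In Tgfb2 the capitals mark the hypoxia response core ACGTG on each strand, overlapping in 1 palindrome, with matches that begin 229 and 228 bases before the start. In Gdf15 they mark the SMAD-binding CAGA box CAGAC, read on the opposite strand, 217 bases before the start. The Inhba window and the window of the upstream Gdf15 start, not shown, held none of the 6 motifs searched on both strands. Below, a member is counted if any of its starts held the motif, whereas the percentages are shares of single promoters. Of the 10 members, 2 held ACGTG (Tgfb2 and Tgfbr2), against 16.6% of the 33469 RefSeq rat promoters of that length, and 1 held CAGAC, against 42.9%. None held TGANTCA (AP-1), TGACGTCA (CRE), TGATGCAA (amino acid response element) or GTCTAGAC (SMAD palindrome), which were present in 6.34, 1.59, 0.693 and 0.173% of promoters. A match is a run of letters only, and binding was not measured.

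Of the 10 genes, 7 were higher and 2 lower in MI than in Sham rats at an adjusted p below 0.05 (edgeR quasi-likelihood test, adjusted over 15101 genes). Of all genes tested, 30.2% were higher and 33.6% were lower in that comparison. Going from MI to iCarP+/Light+ rats, 4 members were higher and 1 was lower, against 11.6% and 2.01% of all genes. From Sham to iCarP+/Light+ rats 6 were higher and 1 was lower, against 33.5% and 33% of all genes. The members' median log2 fold change was 0.51, 0.15 and 0.82 in these 3 comparisons, and that of all genes tested was -0.06, 0.01 and 0.02. The comparisons share groups and are not independent of each other.

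The scaling of the libraries matters for these splits. Of the genes called, 47.3% were higher in MI minus Sham, 85.2% in iCarP+/Light+ minus MI and 50.3% in iCarP+/Light+ minus Sham. Scaled by total counts alone, the shares were 73.5, 30.7 and 64.7%, and DESeq2 gave 70.8% for iCarP+/Light+ minus MI. Scaling by total counts moved the median of all genes to 0.52, -0.25 and 0.33 on the log2 scale. CPM values, including the marker sums above, and fold changes are on the scale of trimmed means (TMM) unless another scaling is named. On the TMM scale that median stayed near 0.

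**Figure D1:**
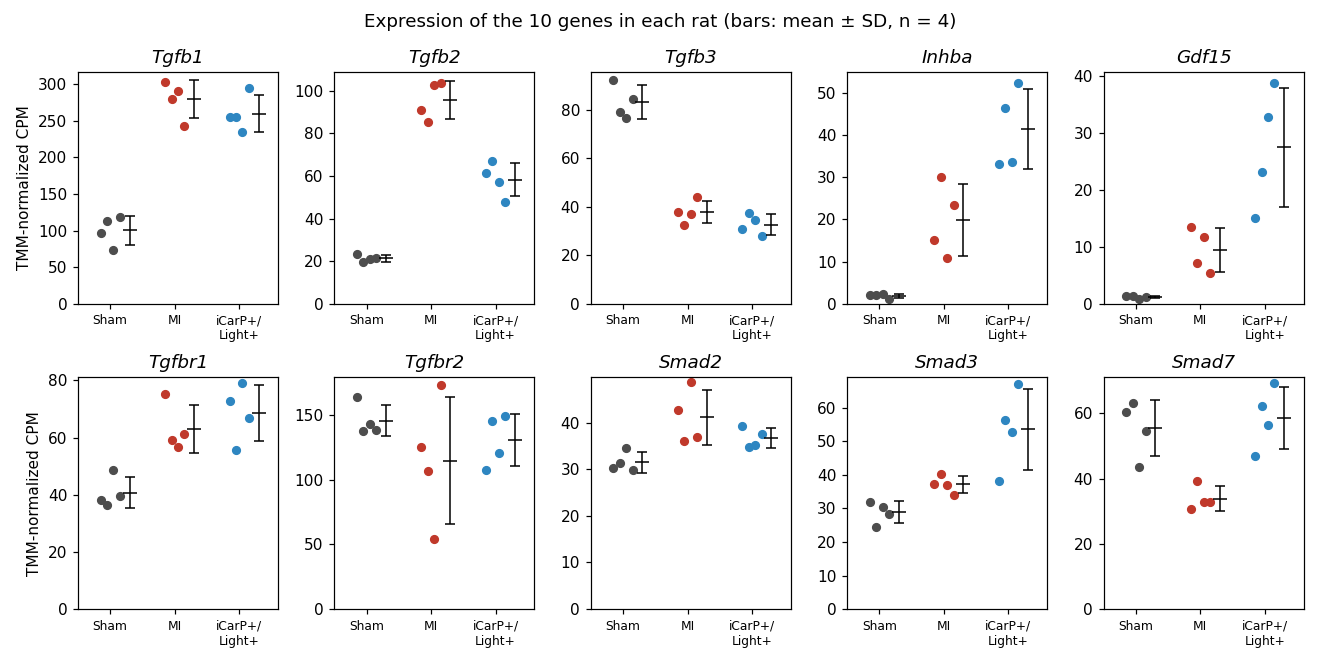
TMM-normalized CPM (linear axis from 0, own scale in each panel) of the 10 genes in Sham, MI and iCarP+/Light+ rats. Points are rats and bars give the mean ± SD (n = 4). Tgfb2 was highest in the MI rats, Inhba and Gdf15 rose over both steps, and Smad7 was lowest in the MI rats.

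Tgfb1 (ENSRNOG00000020652, chr1:82480195-82497199, plus strand, build rn6 as for all positions from the count table) is the main TGF-β ligand of platelets and macrophages. Its level in Sham replicates 1, 2, 3 and 5 was 97.3, 113, 72.9 and 118 CPM. MI replicates 1, 3, 4 and 5 had 303, 279.9, 291 and 243 CPM, and iCarP+/Light+ replicates 1, 2, 4 and 5 had 255, 255, 235 and 294 CPM. Rats are given in this order of replicates throughout. All infarcted rats were above all Sham rats, and MI and iCarP+/Light+ rats overlapped. Tgfb1 rose by 1.48 on the log2 scale from Sham to MI (SE 0.15, 2.79-fold, adjusted p = 2.44e-06 in edgeR). Between MI and iCarP+/Light+ rats its difference was -0.10 (95% interval -0.42 to 0.21, adjusted p = 0.714 in edgeR), and it did not pass the threshold in any of 20 alternative fits.

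Tgfb2 (ENSRNOG00000002418, chr13:105039853-105141030, minus strand) encodes a ligand that needs the co-receptor betaglycan to bind its type II receptor well. Sham rats had 23.3, 19.7, 20.9 and 21.6 CPM, MI rats 90.9, 85.4, 103 and 104 CPM, and iCarP+/Light+ rats 61.2, 66.8, 57.3 and 48.0 CPM. No 2 groups overlapped, and the treated rats lay between the others. Tgfb2 rose by 2.16 (log2, SE 0.12, adjusted p = 5.31e-08 in edgeR) from Sham to MI, fell by 0.71 (SE 0.11, 1.64-fold, adjusted p = 9.62e-04) from MI to iCarP+/Light+, and stayed 1.45 above Sham there. The only annotated gene that overlaps it, a snoRNA on the opposite strand, had 0 counts in every rat. The summed macrophage markers had the same order of group means as Tgfb2 (439 CPM in Sham rats, 5097 in MI rats and 3825 in treated rats), with MI and treated rats overlapping, and their part in the levels of Tgfb1 and Tgfb2 was not tested.

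Tgfb3 (ENSRNOG00000009867, chr6:109913757-109935533, minus strand) moved the other way. This isoform is known from palate and lung development and from mesenchymal cells. Sham rats had 92.3, 79.0, 76.7 and 84.2 CPM, MI rats 37.7, 32.6, 37.1 and 43.8 CPM, and iCarP+/Light+ rats 30.7, 37.4, 34.6 and 27.9 CPM. Every infarcted rat was below every Sham rat. Tgfb3 fell by 1.13 (log2, SE 0.12, 2.20-fold, adjusted p = 3.84e-06 in edgeR) from Sham to MI and by 1.35 (adjusted p = 7.74e-07) from Sham to iCarP+/Light+. Its difference between MI and iCarP+/Light+ rats was -0.21 (95% interval -0.47 to 0.05, adjusted p = 0.303 in edgeR). The summed cardiomyocyte, fibroblast, endothelial and mural markers were also lower in the infarcted rats, the cardiomyocyte markers by the most, and their part in the fall of Tgfb3 was not tested.

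Inhba (ENSRNOG00000014320, chr17:51898217-51912496, minus strand) encodes the βA subunit of activin A, which signals through SMAD2 and SMAD3 by the activin receptors. Its levels were 2.10, 1.98, 2.28 and 1.11 CPM in Sham rats, from 15 to 30 counts a rat. MI rats had 15.1, 29.9, 10.8 and 23.4 CPM, and iCarP+/Light+ rats had 33.1, 46.3, 33.6 and 52.3 CPM. The 3 groups did not overlap, although the highest MI rat, replicate 3, stood close to the lowest treated rat. Inhba rose by 3.40 (log2, SE 0.34, 10.6-fold, adjusted p = 2.12e-06 in edgeR) from Sham to MI and by a further 1.06 (SE 0.28, adjusted p = 0.0244) from MI to iCarP+/Light+. The latter call was lost without MI replicate 1 (adjusted p = 0.0752), without iCarP+/Light+ replicate 2 (0.0676) or without iCarP+/Light+ replicate 5 (0.108), with a change of 0.85 to 1.33 in 12 fits with 1 rat left out each. It was also lost with total counts alone (0.77, adjusted p = 0.0602) and with only the compared rats (1.02, adjusted p = 0.0540).

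Gdf15 (ENSRNOG00000019661, chr16:20555395-20557978, plus strand) encodes a distant ligand of the superfamily that is induced by cell stress and acts through GFRAL, a receptor of the hindbrain, rather than through TGF-β receptors. Sham rats had 1.30, 1.30, 0.911 and 1.11 CPM, MI rats 13.5, 7.17, 11.7 and 5.32 CPM, and iCarP+/Light+ rats 15.1, 23.2, 32.7 and 38.8 CPM. The groups did not overlap, and the lowest treated rat stood close to the highest MI rat. Gdf15 rose by 3.02 (log2, SE 0.37, 8.11-fold, adjusted p = 1.32e-05 in edgeR) from Sham to MI and by 1.54 (SE 0.32, 2.91-fold, adjusted p = 0.00515) from MI to iCarP+/Light+. Against Sham, the treated rats were 23.6-fold higher in Gdf15 and 22.1-fold higher in Inhba. Gfral itself had 0 counts in all 12 rats. This allows up to 3 counts a rat (counting error only), or 0.175 to 0.213 CPM on library totals without the TMM factor that the other CPM values carry. The neutrophil markers stood in the same order of groups as Inhba and Gdf15, highest in the treated rats, and their part in these rises was not tested.

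The type I receptor gene Tgfbr1 (ENSRNOG00000007036, chr5:63050758-63119635, plus strand) had 38.0, 36.5, 48.7 and 39.7 CPM in Sham rats, 75.2, 59.1, 56.7 and 61.2 CPM in MI rats and 72.9, 55.8, 79.0 and 66.8 CPM in iCarP+/Light+ rats. Sham rats were all below the infarcted rats, and the infarcted groups overlapped. Tgfbr1 rose by 0.63 (log2, SE 0.14, 1.55-fold, adjusted p = 0.00128 in edgeR) from Sham to MI. From MI to iCarP+/Light+ rats its difference was 0.12 (95% interval -0.17 to 0.42, adjusted p = 0.633), which became -0.14 when libraries were scaled by total counts alone.

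The type II receptor gene Tgfbr2 (ENSRNOG00000013265, chr8:124312754-124399494, minus strand), whose product binds the ligand first, was the only member with no call in any of the 3 comparisons. Its level was 163, 138, 143 and 138 CPM in Sham rats, 125, 106, 53.9 and 173 CPM in MI rats and 107, 146, 120.4 and 149 CPM in iCarP+/Light+ rats. MI replicate 4 had the lowest and MI replicate 5 the highest level of all 12 rats, so this group spanned both others. The difference was -0.34 (log2, 95% interval -0.90 to 0.21, adjusted p = 0.261 in edgeR) from Sham to MI and 0.19 (-0.37 to 0.75, adjusted p = 0.712) from MI to iCarP+/Light+. Without MI replicate 5 the first became -0.61 and was called (adjusted p = 0.0407). Without MI replicate 4 the second became -0.05. Scaled by total counts alone the differences were 0.25 and -0.11.

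Smad2 (ENSRNOG00000018140, chr18:72550219-72612078, plus strand) encodes a receptor-activated SMAD. It had 30.2, 31.4, 34.7 and 29.8 CPM in Sham rats, 42.7, 36.1, 48.8 and 37.0 CPM in MI rats and 39.4, 34.8, 35.3 and 37.6 CPM in iCarP+/Light+ rats. Smad2 rose by 0.38 (log2, SE 0.11, adjusted p = 0.00836 in edgeR) from Sham to MI. From MI to iCarP+/Light+ its difference was -0.16 (95% interval -0.40 to 0.08, adjusted p = 0.407). iCarP+/Light+ and Sham rats were separated by a narrow gap, but the difference of 0.22 did not pass the threshold (adjusted p = 0.0940) in the fit of all 12 rats. It was called with total counts alone (0.54, adjusted p = 5.85e-04), with only the compared rats (0.23, adjusted p = 0.0471) and without MI replicate 4 (0.23, adjusted p = 0.0442).

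Smad3 (ENSRNOG00000008620, chr8:68569530-68678349, minus strand) encodes the receptor-activated SMAD that binds the CAGA box directly. Sham rats had 32.0, 24.5, 30.4 and 28.5 CPM, MI rats 37.2, 40.4, 37.0 and 34.0 CPM, and iCarP+/Light+ rats 38.1, 56.3, 52.8 and 67.0 CPM. MI and Sham rats did not overlap, whereas iCarP+/Light+ replicate 1 lay within the MI range. Smad3 rose by 0.89 (log2, SE 0.15, 1.86-fold, adjusted p = 1.85e-04 in edgeR) from Sham to iCarP+/Light+. Its single steps stood near the threshold, at 0.37 (adjusted p = 0.0496) from Sham to MI and 0.53 (adjusted p = 0.0342) from MI to iCarP+/Light+. The first was called in 4 of 12 fits with a rat left out, those without MI replicate 5, iCarP+/Light+ replicate 1 or 5, or Sham replicate 1, at 0.30 to 0.47 over the 12, and was lost in limma-voom (0.37, adjusted p = 0.0571). The second was called in 4 of 8 other settings and in 6 of 12 with a rat left out, at 0.32 to 0.66, and lost without MI replicate 1, 4 or 5 or without iCarP+/Light+ replicate 2, 4 or 5.

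Smad7 (ENSRNOG00000018359, chr18:71395830-71424157, plus strand), the inhibitory SMAD, was lowest in the MI rats. Its level was 60.5, 63.3, 43.6 and 54.6 CPM in Sham rats, 30.5, 39.3, 32.8 and 32.9 CPM in MI rats and 46.8, 62.4, 56.4 and 69.2 CPM in iCarP+/Light+ rats. All MI rats were below all other rats, and Sham and iCarP+/Light+ rats overlapped. Smad7 fell by 0.71 (log2, SE 0.15, 1.64-fold, adjusted p = 8.40e-04 in edgeR) from Sham to MI and rose by 0.79 (SE 0.15, 1.73-fold, adjusted p = 0.00258) from MI to iCarP+/Light+. Between Sham and iCarP+/Light+ rats the difference was 0.08 (95% interval -0.23 to 0.39, adjusted p = 0.642), and with total counts alone it was 0.38 and called (adjusted p = 0.0345). Under that scaling the step from Sham to MI was -0.14 and not called (adjusted p = 0.422), while the rise from MI to iCarP+/Light+ was called in all 20 alternative fits.

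**Figure D2:**
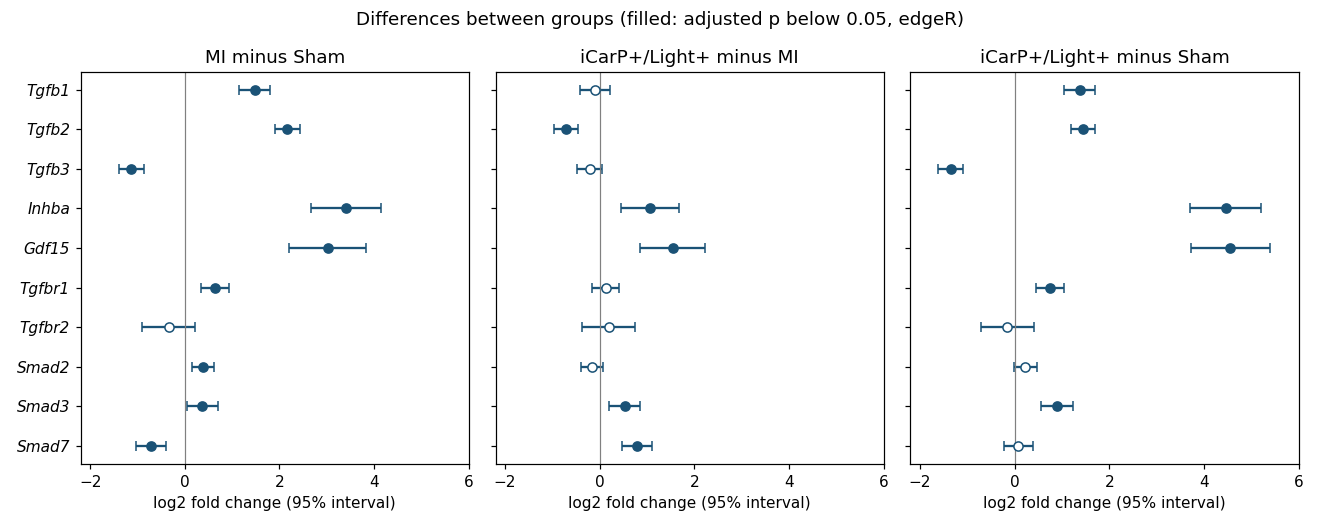
Log2 fold changes (x axis) of the 10 genes in the 3 comparisons, with 95% intervals from the edgeR fit to 12 rats. Filled points have an adjusted p below 0.05. Between MI and iCarP+/Light+ rats Tgfb2 is the single filled point below 0, and Smad3, Smad7, Inhba and Gdf15 are filled above 0.

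For single members, a two-sided exact permutation test of log2 CPM was run beside the model, with 70 ways to divide 8 rats. The smallest p it allows, 0.0286, was reached wherever the groups did not overlap. Smad3 between MI and iCarP+/Light+ rats, called by edgeR, had an exact permutation p of 0.0571.

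The balance between members was also read within each rat as a ratio of counts, which no scaling of libraries can change. Of 5 ratios, 5 did not overlap between MI and Sham, 3 between iCarP+/Light+ and MI, and 4 between iCarP+/Light+ and Sham. Over all pairs of the 14377 tested genes with a count in every rat, 58.4, 16.5 and 62% of ratios did not overlap in these comparisons, so the counts are not read as particular to these pairs. The comparisons without overlap had the smallest p that 4 rats against 4 allow (two-sided exact permutation test, p = 0.0286, adjusted p = 0.0357 over 15 comparisons). The ratio of Tgfb2 to Tgfb3 counts was 0.249 to 0.272 in Sham rats, 2.36 to 2.76 in MI rats and 1.66 to 1.99 in iCarP+/Light+ rats. It thus shifted 9.85-fold towards Tgfb2 from Sham to MI, and from MI to iCarP+/Light+ it fell by 0.51 on the log2 scale. The Tgfb2 to Tgfb1 ratio was 0.174 to 0.286 in Sham rats, 0.299 to 0.426 in MI rats and 0.163 to 0.262 in iCarP+/Light+ rats. MI rats were above both other groups, which overlapped (log2 difference 0.05, exact permutation p = 0.886). For Tgfb3 to Tgfb1, Sham rats had 0.701 to 1.05, MI rats 0.116 to 0.180 and iCarP+/Light+ rats 0.0946 to 0.147, and the infarcted groups overlapped (-0.11, exact permutation p = 0.571).

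The ratio of the inhibitory Smad7 to Smad3 was 1.44 to 2.58 in Sham rats, 0.820 to 0.972 in MI rats and 1.03 to 1.23 in iCarP+/Light+ rats. It fell by 1.07 (log2) from Sham to MI and rose by 0.28 from MI to iCarP+/Light+, staying 0.79 below Sham. The Tgfbr1 to Tgfbr2 ratio was 0.233 to 0.341 in Sham rats, 0.353 to 1.05 in MI rats and 0.383 to 0.680 in iCarP+/Light+ rats. Infarcted rats were all above Sham rats (log2 differences 1.09 and 0.92) and did not differ detectably among themselves (-0.17, exact permutation p = 0.657). The top MI ratio was that of replicate 4, the rat with the lowest Tgfbr2.

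**Figure D3:**
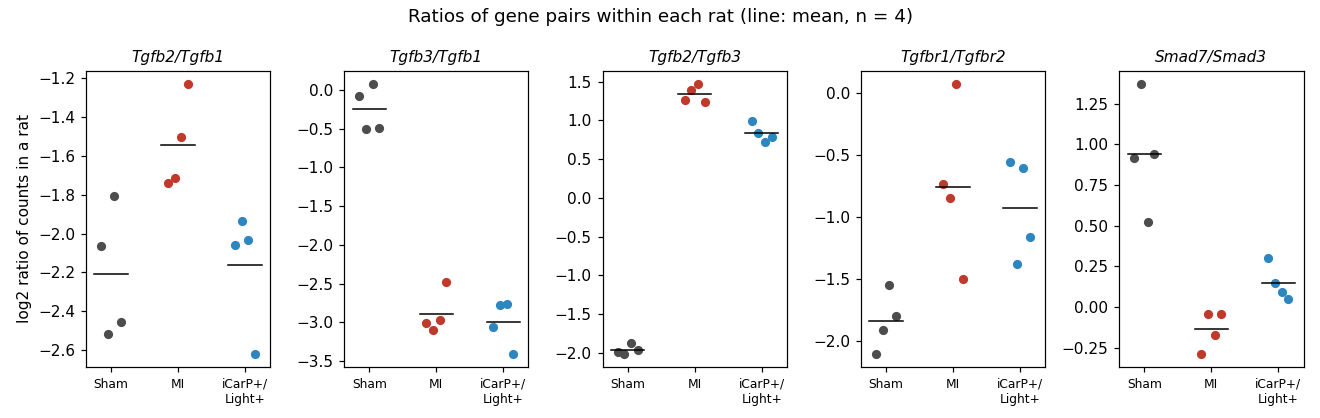
Log2 ratio of counts (y axis, own scale in each panel) of 5 gene pairs in each of the 12 rats, by group, with the mean as a line (n = 4). The 3 groups are separate for Tgfb2/Tgfb3 and Smad7/Smad3, and for Tgfb2/Tgfb1 the MI rats stand above both others.

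Levels of different genes were compared as CPM per kb of the gene length listed in the table. In Sham rats the order of means was Tgfbr2 (52.3), Tgfb1 (46.9), Tgfb3 (31.7), Smad7 (12.9), Smad2 (10.9), Tgfbr1 (6.94), Smad3 (5.72), Tgfb2 (4.95), Gdf15 (1.26) and Inhba (0.730). Neighbours overlapped over the rats except at the steps from Tgfb3 to Smad7, from Smad2 to Tgfbr1, from Tgfb2 to Gdf15 and from Gdf15 to Inhba. In MI rats Tgfb1 (131) stood above all other members, followed by Tgfbr2 (41.2) and Tgfb2 (22.2), and the other 7 lay between 7.38 (Smad3) and 14.4 (Tgfb3) CPM per kb. Tgfbr2 and Tgfb2 overlapped over the MI rats, and from Tgfb3 down every neighbour overlapped the next. In iCarP+/Light+ rats Tgfb1 (121) and Tgfbr2 (46.9) were followed by Gdf15 (30.1) and Inhba (16.2), which had been last in Sham. From Tgfbr2 down, every neighbour in the treated rats overlapped the next. Neighbouring ranks below Tgfb1 are therefore not resolved in that group.

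**Figure D4:**
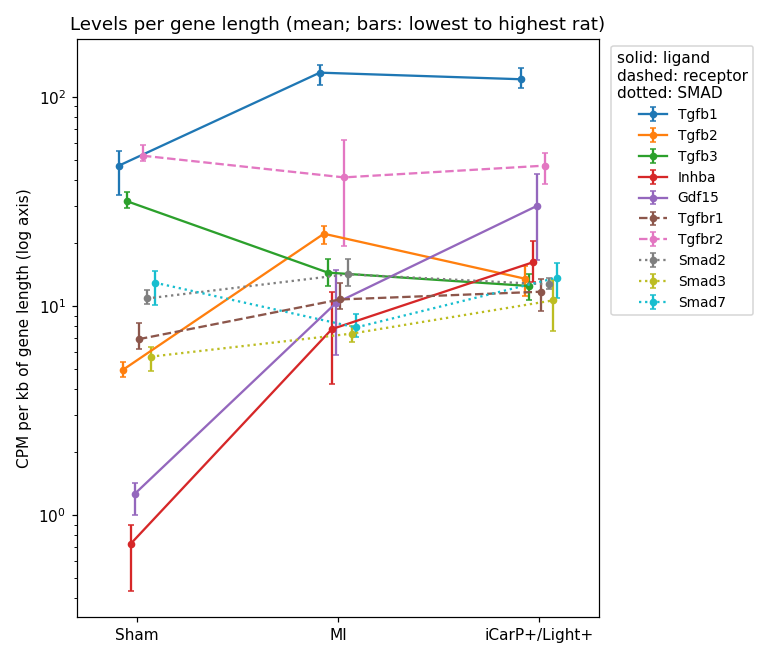
CPM per kb of gene length (log axis) of the 10 genes in the 3 groups, with the mean as a point and a bar from the lowest to the highest of 4 rats. Gdf15 and Inhba start lowest in Sham, and Tgfb3 crosses below Tgfb2 in MI rats. In iCarP+/Light+ rats the means of Gdf15 and Inhba stand above those of most other members, but the rats of Inhba overlap those of every member below it.

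Other genes of the pathway were counted in 6 lists of 76 genes, of which 65 were tested. Of these, 26 were higher and 25 lower in MI than in Sham rats, 10 were higher and 2 lower in treated than in MI rats, and against Sham 30 were higher and 22 lower in treated rats (edgeR, adjusted p below 0.05). The 12 calls between treated and MI rats became 7 without MI replicate 1 or 4 or without iCarP+/Light+ replicate 2, 4 or 5, 7 with only the compared rats, and 20 with total counts alone. The shares of all genes given above are the background for these edgeR counts. Between treated and MI rats, DESeq2 called 2612 of all genes (70.8% of them higher) and limma-voom 2154 (83.8%), against 2051 (85.2%) by edgeR. The share of all genes at an unadjusted p below 0.05 was not computed, so list counts at that threshold have no background here.

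Among 9 other ligands of the superfamily, 3 were higher and 5 lower in MI than in Sham rats (median -0.48). Inha, the inhibin α subunit that pairs with activin β subunits to form the activin antagonist inhibin, was 71.2 to 136 CPM in Sham and 0.575 to 4.31 CPM in MI rats, and fell by 5.11 on the log2 scale (SE 0.54, adjusted p = 3.44e-06 in edgeR). Inhbb, the activin βB subunit, went from 3.14 to 5.75 CPM in Sham to 30.7 to 86.6 CPM in MI rats (log2 3.60, adjusted p = 1.10e-06 in edgeR). Gdf6, a bone morphogenetic protein, was at 0.0737 to 0.380 CPM in Sham, near the floor, and at 7.16 to 10.8 CPM in MI rats. So the activin β subunits Inhba and Inhbb rose and the inhibin α subunit fell, and other β subunits were not in the lists. In the treated against the MI rats 0 of the 9 were called by edgeR, DESeq2 or limma-voom, and 3 were higher at an unadjusted p below 0.05. Nodal had 0 counts in all rats, and Bmp10, Gdf9, Gdf10 and Mstn did not pass the filter on low counts.

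Among 9 other receptors and co-receptors, 1 was higher and 6 were lower in MI than in Sham rats (median -0.81). Tgfbr3, the co-receptor betaglycan on which Tgfb2 depends, fell from 106 to 114 CPM in Sham to 33.1 to 63.3 CPM in MI rats (log2 -1.09, adjusted p = 8.69e-05 in edgeR). The bone morphogenetic protein type I receptors Bmpr1a (log2 -1.01, adjusted p = 3.28e-04 in edgeR) and Acvr1 (-0.95, adjusted p = 8.48e-06) fell too. Bmpr1a was not called when scaled by total counts alone (-0.42, adjusted p = 0.0681). The higher one was Acvr1b, the type I receptor of activins, at 21.1 to 24.7 CPM in Sham rats, 38.1 to 46.6 in MI rats and 56.2 to 76.1 in iCarP+/Light+ rats. It was also the single receptor called from MI to iCarP+/Light+ (log2 0.68, adjusted p = 0.00127 in edgeR). No receptor was lower there by edgeR, DESeq2 or limma-voom, or at an unadjusted p below 0.05 (0 in each).

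Of 4 other SMADs tested, 1 was lower in MI than in Sham rats, the inhibitory Smad6 of the bone morphogenetic protein branch (19.7 to 35.3 against 10.2 to 13.4 CPM, log2 -1.08, adjusted p = 0.00161 in edgeR). It was not called when scaled by total counts alone (-0.51, adjusted p = 0.100). Between MI and iCarP+/Light+ rats, where Smad7 rose, the difference of Smad6 was -0.02 (adjusted p = 0.967). Smad4, the common partner, was higher in treated than in MI rats (53.2 to 74.5 against 38.4 to 58.0 CPM, log2 0.49, adjusted p = 0.0268 in edgeR), with overlapping groups, and kept this call in 6 of 12 fits with a rat left out. Scaled by total counts alone it was 0.21 and not called (adjusted p = 0.277), and 5 of 8 other settings called it. It was lost without MI replicate 1, 3 or 4 or iCarP+/Light+ replicate 2, 4 or 5.

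Of 12 genes of latency and activation, 4 were higher and 5 lower in MI than in Sham rats (median -0.04). Thbs1, thrombospondin-1, an activator of latent TGF-β released by platelets and injured tissue, was 5.60 to 13.1 CPM in Sham rats, 704 to 1470.2 CPM in MI rats and 1662 to 3455 CPM in iCarP+/Light+ rats. Its rise from Sham to MI was 6.55 (log2, SE 0.41, adjusted p = 8.33e-08 in edgeR), and from MI to iCarP+/Light+ it was 1.23 (adjusted p = 0.0209). The second call was lost without MI replicate 3, 4 or 5 or iCarP+/Light+ replicate 5. Of the latent TGF-β binding proteins, Ltbp2 rose by 3.24 (adjusted p = 1.56e-06 in edgeR) and Ltbp4, at 996 to 1294 CPM in Sham rats, fell by 2.01 (adjusted p = 1.52e-06) from Sham to MI.

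Between MI and treated rats 3 of the 12 were higher and none was lower by edgeR (0, with 1 lower at an unadjusted p below 0.05, 1 by DESeq2 and 0 by limma-voom). Beside Thbs1 these were the integrin subunits αv and β8, which together release TGF-β from its latent complex. Itgav was 29.6 to 37.2 CPM in Sham rats, 27.5 to 53.1 in MI rats and 83.6 to 182 in iCarP+/Light+ rats (log2 1.65 from MI to iCarP+/Light+, adjusted p = 5.49e-04 in edgeR). Itgb8 was 4.44 to 6.87 CPM in Sham rats, 1.90 to 4.95 in MI rats and 6.45 to 17.2 in iCarP+/Light+ rats (log2 1.69, adjusted p = 0.00765 in edgeR). Neither passed the threshold from Sham to MI, and both kept their call from MI to iCarP+/Light+ in all 20 alternative fits. Itgav pairs with several β subunits, and Itgb5, another of them, was not called there (log2 -0.33, adjusted p = 0.250 in edgeR).

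Of 15 inhibitors, 8 were higher and 4 lower in MI than in Sham rats (median 0.43). The extracellular antagonists Fst and Fstl3, which bind activins, rose by 3.43 (0.940 to 1.47 against 11.8 to 15.2 CPM) and 2.87 (4.64 to 8.12 against 43.8 to 47.8 CPM), with adjusted p = 9.10e-08 and 4.78e-08 in edgeR. Grem1, an antagonist of bone morphogenetic proteins, rose by 3.38 (0.273 to 1.08 against 4.03 to 10.4 CPM, adjusted p = 6.48e-05 in edgeR). Against MI, the treated rats had 4 inhibitors higher and 0 lower in edgeR, DESeq2 and limma-voom, and also 0 at an unadjusted p below 0.05. Skil, the SMAD co-repressor SnoN, went from 18.4 to 32.3 CPM in MI to 46.3 to 124 CPM in iCarP+/Light+ rats (log2 1.63, adjusted p = 6.47e-04 in edgeR), called in all 20 alternative fits. The co-repressor Tgif1 (0.74, adjusted p = 0.0401 in edgeR) and decorin, Dcn, a proteoglycan that binds TGF-β (0.73, adjusted p = 0.0374), had overlapping groups. Leaving out a rat kept the call of Tgif1 in 6 and that of Dcn in 4 of 12 fits, and of 8 other settings 3 called Tgif1 and 4 called Dcn. Both lost their call with DESeq2's size factors and with total counts alone (0.47 and 0.46). Tgif1 was lost without MI replicate 1, 3 or 5 or iCarP+/Light+ replicate 2, 4 or 5, and Dcn without MI replicate 1, 4 or 5, iCarP+/Light+ replicate 2, 4 or 5 or Sham replicate 1 or 3. The remaining call was Ppm1a, a SMAD phosphatase (0.40, adjusted p = 0.0123 in edgeR), which was not called with total counts alone or without iCarP+/Light+ replicate 5.

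All 16 genes known as targets of the pathway were tested, and 10 were higher and 4 lower in MI than in Sham rats (median 1.83). The largest rises were those of Il11, a fibroblast cytokine, Adam12, a metalloproteinase, and Timp1, an inhibitor of metalloproteinases. Il11 was at or under the floor in Sham rats (0 to 0.147 CPM) and at 2.11 to 21.3 CPM in MI rats. Adam12 went from 0.369 to 1.02 CPM to 9.17 to 51.4 CPM (log2 5.45, adjusted p = 1.45e-06 in edgeR), and Timp1 from 13.4 to 18.9 CPM to 371 to 604 CPM (4.82, adjusted p = 8.99e-09). The 4 that fell were structural matrix genes, Eln (-2.37), Col3a1 (-2.25), Col1a1 (-1.55) and Col1a2 (-0.83), which are also made by the fibroblasts whose markers were lower in the same rats, and the part of those cells was not tested.

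From MI to iCarP+/Light+ rats 1 target was higher and 2 were lower by edgeR (median -0.32), against 1 and 3 by DESeq2, 3 and 2 by limma-voom, and 2 and 4 at an unadjusted p below 0.05. Ccn2, connective tissue growth factor, was 32.1 to 68.3 CPM in Sham rats, 448 to 529.8 CPM in MI rats and 160.2 to 325 CPM in iCarP+/Light+ rats (log2 -0.97 from MI to iCarP+/Light+, adjusted p = 0.0150 in edgeR). Tgfbi, a secreted matrix protein, fell by 0.62 (412 to 608 against 281 to 462 CPM, adjusted p = 0.0239 in edgeR) and Timp1 rose by 0.55 (adjusted p = 0.0369), both with overlapping groups. Tgfbi lost its call without MI replicate 1 or 4 or iCarP+/Light+ replicate 1, 2 or 4, and Timp1 kept its call in 4 of 12 such fits. Of 8 other settings, 6 called Tgfbi and 4 called Timp1, which was 0.29 (adjusted p = 0.204) with total counts alone. Timp1 was lost without MI replicate 1, 4 or 5, iCarP+/Light+ replicate 2, 4 or 5 or Sham replicate 3 or 5.

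**Figure D5:**
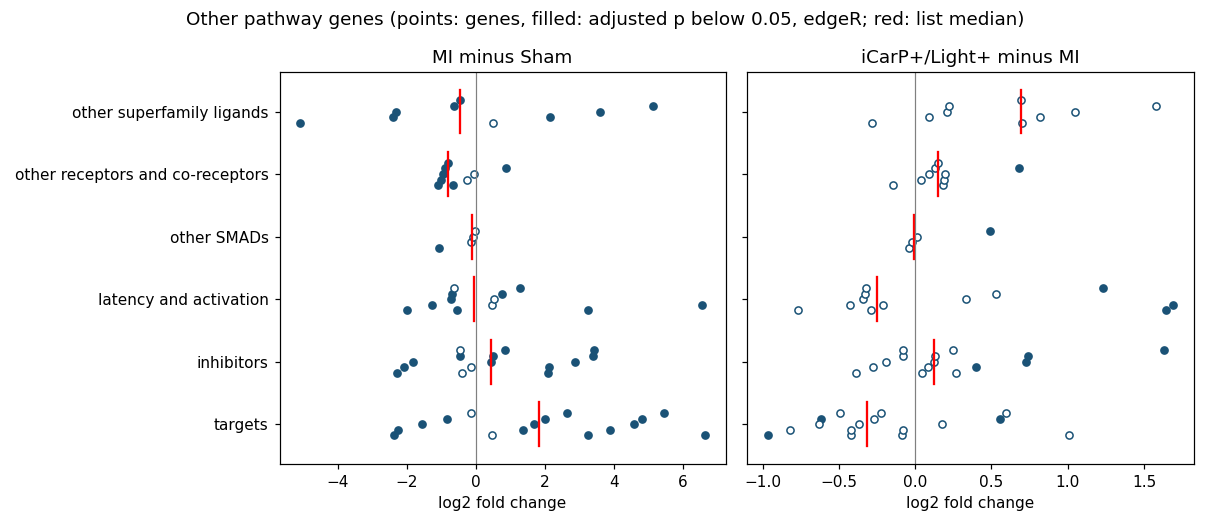
Log2 fold changes (x axis, own scale in each panel) of 65 other pathway genes in 6 lists, for MI minus Sham and iCarP+/Light+ minus MI. Points are genes, filled at an adjusted p below 0.05 in edgeR, and red lines are list medians. The receptors lie mostly below 0 and the targets mostly above 0 in the first panel, and few points are filled in the second.

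The genes with the most similar pattern to Tgfb2, Inhba, Gdf15 and Smad7, which are 4 of the 5 members called between MI and iCarP+/Light+ rats, were searched among 10722 protein-coding genes with a mean of at least 5 CPM. Likeness was Pearson's r of log2 CPM over the 12 rats, which mostly reflects the differences between the 3 groups and is given as a description. Ccn2 was nearest to Tgfb2 (r = 0.987), followed by Slc35b4 (0.981), a sugar transporter, and Serpinb8 (0.980), a protease inhibitor. Ccn2, a listed target, thus had the same order of groups as Tgfb2, highest in MI rats. Nearest to Inhba were Cemip2 (0.991), Adamts1 (0.989), a secreted metalloproteinase, and Kcna3 (0.982), a potassium channel of leukocytes. Nearest to Gdf15 were the ferritin light chain gene Ftl1 (0.995), Tpd52 (0.995) and Id2 (0.993), an inhibitor of basic helix-loop-helix factors. Ftl1 averaged 386 ± 28.2 CPM in Sham rats, 1809.9 ± 547 in MI rats and 4202 ± 1391 in iCarP+/Light+ rats (SD, n = 4). Smad7 had the least close neighbours of these 4 members, Nudt4 (0.958), Egln1 (0.955) and Phf1 (0.954). Egln1, an oxygen-sensing prolyl hydroxylase, averaged 148 ± 14.6 CPM in Sham rats, 65.9 ± 21.7 in MI rats and 169.97 ± 42.3 in iCarP+/Light+ rats (SD, n = 4).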

How the data were processed

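Total RNA was extracted with Trizol, and libraries were made with the NEBNext Ultra RNA kit. The authors deposited whole-number read counts per gene for 12 rats, not normalized, with each gene's position and length (per the labels' processing notes, HISAT2, featureCounts and build rn6). The strand setting and the handling of reads with several matches are not given in the sources used here. No 2 libraries of a group were copies (chi-square per gene 14.8 to 119, where counting noise gives 1). The labels name no batch. The study names tests for its results in general and none for the read counts.

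Counts were analysed with edgeR 4.0.16 in R 4.3.3: filterByExpr (minimum count 10), TMM, and a quasi-likelihood fit of 1 mean per group to 12 rats, with Benjamini-Hochberg adjustment over 15101 genes (threshold 0.05). The fit was tested on simulated data. Alternatives used DESeq2 1.42.0, limma 3.58.1 (voom), other scalings, no filter, no mitochondrial genes, only the compared rats or a replicate block, or left out each rat.

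Members and gene lists were chosen with earlier results of these data known. Named were all members and, per list, the 3 called genes with the largest absolute log2 fold change in MI minus Sham and in iCarP+/Light+ minus MI. Ppm1a, Itgb5, Gfral, Nodal, and the collagen and elastin genes were named after their values were seen. Promoters (GRCr8, RefSeq) were matched by symbol for all 10 members, and no coordinates were converted between builds.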

Additional observations from a re-analysis of the deposited data

How the results depend on the processing

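Over 8 other settings and 12 fits that each left out a rat, 220 of 240 and 339 of 360 member values had the sign and the call reported, as did all 15 within-rat ratios with a pseudocount of 1. Scaling by total counts alone gave 3926 genes called from MI to iCarP+/Light+ rats (2051 with TMM) and 20 pathway genes (12 with TMM). It turned Tgfbr2 to 0.25 (MI minus Sham), -0.11 (iCarP+/Light+ minus MI) and 0.15 (iCarP+/Light+ minus Sham) and Tgfbr1 to -0.14 (iCarP+/Light+ minus MI). Relative to the median of all genes under that scaling these 4 were -0.27, 0.15, -0.18 and 0.11, the directions under TMM. It also called Tgfb3 (-0.48) and Smad2 (-0.42) lower in iCarP+/Light+ than in MI rats, and lost Inhba (0.77, adjusted p = 0.0602 in edgeR) and Smad3 (0.25, adjusted p = 0.178). Against Sham it called Smad2 (0.54) and Smad7 (0.38), so 9 members were called in place of 7. With only the rats compared, 3 members, without Inhba and Smad3, and 7 pathway genes were called from MI to iCarP+/Light+.

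With a replicate block, 1298 genes, 3 members and 8 pathway genes were called from MI to iCarP+/Light+; Gdf15 was 1.47 (adjusted p = 0.0547 in edgeR) and Smad3 0.56 (adjusted p = 0.108). The listed genes Ccn2 (-0.97, adjusted p = 0.0778), Thbs1, Smad4, Tgif1, Dcn and Tgfbi (adjusted p 0.0757 to 0.125) lost that call too. From Sham to MI 7 members were called in place of 9, without Smad2 (0.34, adjusted p = 0.0598) and Smad3 (0.35, adjusted p = 0.133). Rats with the same number did not deviate together (9 pairs, correlation -0.15 to 0.07), and 0 of 12 rats correlated best with its own number. With 4 rats a group, these correlations cannot show whether rats of the same number were handled together. Leaving out each rat gave 9035 to 9858, 1399 to 2504 and 9541 to 10575 genes called in MI minus Sham, iCarP+/Light+ minus MI and iCarP+/Light+ minus Sham. It gave 8 to 10, 3 to 5 and 7 to 8 members and 48 to 54, 7 to 13 and 48 to 54 pathway genes. Tgfbr2 ran from -0.050 (without MI replicate 4) to 0.45 (without MI replicate 5) in iCarP+/Light+ minus MI, and Smad7 from -0.017 (without Sham replicate 3) to 0.18 (without iCarP+/Light+ replicate 1) in iCarP+/Light+ minus Sham. Ratios were not tested with 3 rats against 4, and all 120 such values moved by less than the spread between rats. At this depth Sham counts of Gdf15 and Inhba (12 to 30 a rat) limit the precision of their fold changes.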
